A study of Mus musculus with 14 samples.

Results

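The genes of the caspase and Bcl2 families, with the factors, inhibitors and receptors that connect them, were followed in mouse fetuses late in gestation. Of 35 genes listed by symbol, 34 were found on the array through probes that the platform annotation assigns to a single gene, with 36 probes among 21582 on the array. Bax was not matched and is not analysed here. All 36 probes had enough values to be tested, and 13 of their 504 values were placeholders that were left out, so that 26 probes were measured on all 14 arrays.

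Two-colour arrays compared C57Bl6 fetuses of 2 groups of pregnant mice. In the alcohol-fed group (n = 7 arrays) mothers were exposed to ethanol at about 180 to 200 mg/dl from gestational day 15 to 18. In the pair-fed group (n = 7 arrays) mothers received maltose dextrin over the same days. The RNA of each group was hybridised in Cy5 against a single pool in Cy3, made from 7 freely fed (ad libitum) animals, which one label calls weight matched. Fetuses were taken on gestational day 19. The titles give 5 days of exposure and the protocol 4. No source used here names the tissue. The labels do not tie arrays to litters or animals, and the spread that the p-values rest on may therefore be technical.

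Apoptosis runs along a pair of connected routes. In the extrinsic route a death ligand engages a receptor such as Fas, which recruits the adaptor Fadd and the initiator caspase Casp8. In the intrinsic route BH3-only proteins free the effectors Bax and Bak1 from anti-apoptotic relatives of Bcl2, cytochrome c leaves the mitochondrion and binds Apaf1, and this apoptosome activates Casp9. Bok is a related effector that is not held by Bcl2 in this way. Inhibitor of apoptosis proteins such as Xiap hold caspases back. In the developing nervous system and limbs these routes remove surplus cells.

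All values are log2 ratios of sample to pool, centred on the median of each array. The direction, sample over pool, is likely because the labels list the sample as channel 1, but it is not stated. Were it the reverse, all signs given here would turn. The values are ratios and not levels, so genes cannot be ranked by abundance. In whole-sample RNA a smaller number of cells of a type and less RNA per cell cannot be told apart. Placeholders made up 2.57% to 14.6% of an array, most in pair-fed arrays 6 and 7 and alcohol-fed array 6, and array medians without them ran from -0.62 to 0.68 before centring.

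The members that fell below the pool in the alcohol-fed group were Casp8, Bok, Bik, Cycs, Xiap, Fas and Fadd. The stretch of 100 bases just before the start of transcription is shown for the 6 of these 7 with an entry among RefSeq promoters (GRCm38.p6), to set the genes that moved one way beside each other. Bik had none. Where a gene had several starts, the first one listed was taken. Capitals mark matches on either strand to 1 of 3 motifs. The GC box was searched as GGGCGG. The CCAAT box was searched as its name is spelled. The TATA box was searched as TATAAA. The motifs do not overlap in these windows.
Casp8, chr1:58802402-58802501, plus strand: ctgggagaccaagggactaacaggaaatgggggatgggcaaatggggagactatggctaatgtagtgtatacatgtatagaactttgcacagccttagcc
Bok, chr1:93685475-93685574, plus strand: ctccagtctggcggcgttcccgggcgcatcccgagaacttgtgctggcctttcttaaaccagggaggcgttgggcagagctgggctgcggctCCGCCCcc
Cycs, chr6:50566570-50566669, minus strand: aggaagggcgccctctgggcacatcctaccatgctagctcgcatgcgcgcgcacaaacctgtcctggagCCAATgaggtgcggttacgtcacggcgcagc
Xiap, chrX:42068298-42068397, plus strand: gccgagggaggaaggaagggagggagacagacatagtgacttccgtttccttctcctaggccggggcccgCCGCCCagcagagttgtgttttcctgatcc
Fas, chr19:34290559-34290658, plus strand: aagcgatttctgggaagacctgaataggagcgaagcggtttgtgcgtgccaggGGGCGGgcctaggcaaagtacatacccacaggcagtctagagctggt
Fadd, chr7:144582442-144582541, minus strand: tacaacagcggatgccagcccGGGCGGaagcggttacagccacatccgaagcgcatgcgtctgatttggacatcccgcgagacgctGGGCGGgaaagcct
A GC box stood in 4 of these 6 windows, a CCAAT box in 1 (Cycs) and a TATA box in 0, and GC content ran from 48% (Casp8) to 68% (Bok). Over the 30 members with a promoter entry, 16 held a GC box in this window, 6 a CCAAT box and 0 a TATA box, whereas 25.2%, 19.6% and 5.95% of 27025 gene promoters did. The matches describe the windows and are not evidence that a factor binds there.

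Between the alcohol-fed and the pair-fed group no member passed the test. By limma with Benjamini-Hochberg adjustment, 0 of 36 probes were called, beside a background of 0% over 20876 probes, and 2 of 36 had an unadjusted p under 0.05, beside 4.22% of all probes. The median log2 difference (alcohol-fed minus pair-fed) was 0.11 over the members and 0.01 over all probes, with 21 member probes above 0 and 15 below. The member median ranged from 0.049 without pair-fed array 1 to 0.21 without alcohol-fed array 4, with 0.067 and 0.069 without alcohol-fed arrays 5 and 7 and 0.20 and 0.18 without pair-fed arrays 2 and 4. It was 0.29 without the 3 arrays with most placeholders, an alternative chosen after seeing the data, and 0.0051 over the 26 member probes with a value on all arrays. Differences ran from -0.68 for Xiap to 1.75 for Bcl2l11. The arrays of the groups overlapped for all 36 members, and 0.115% of all probes had groups that did not overlap. A p that misses the threshold does not show that the groups were alike: a 4-fold change either way lay outside the 95% interval of 30 of 36 member probes, and a 2-fold change outside that of only 4 (Casp1, Casp4, Bid and Bmf).

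**Figure D1:**
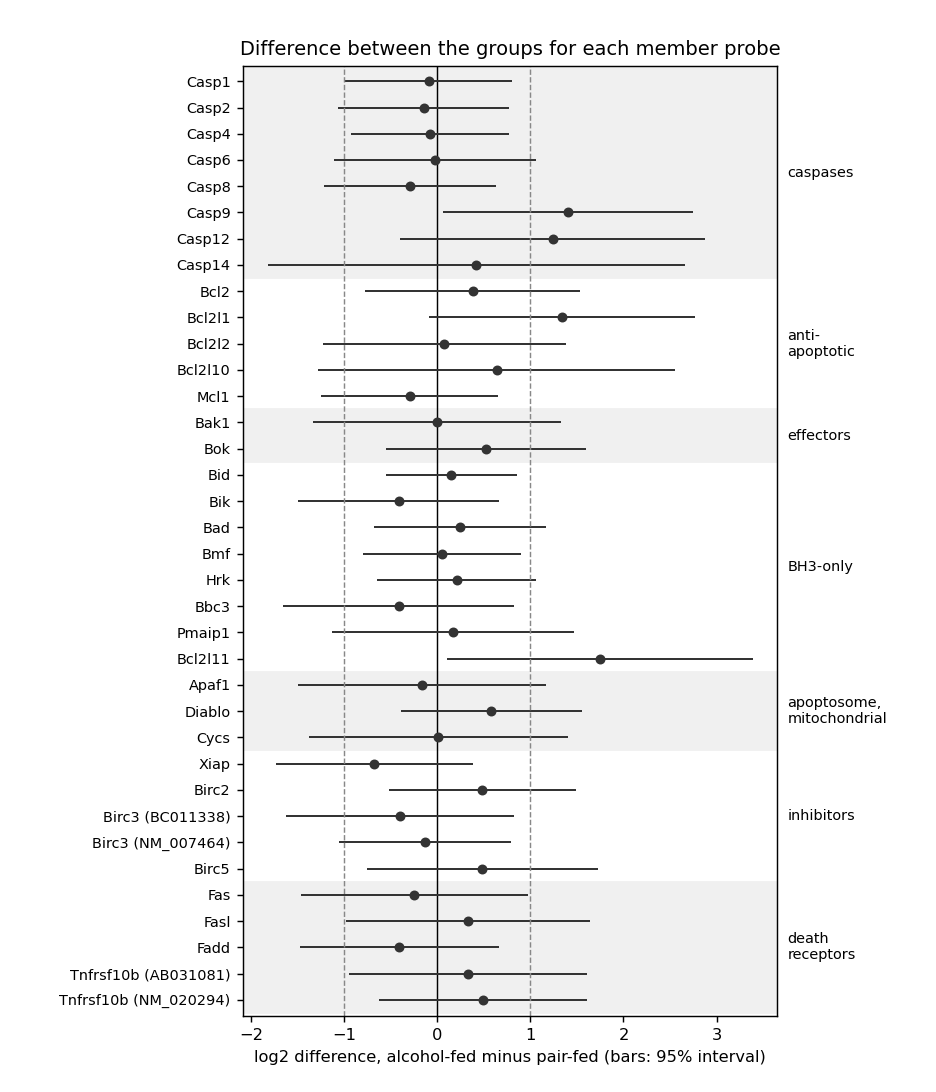
Log2 difference, alcohol-fed minus pair-fed, for each of the 36 member probes (points) with its 95% limma interval (bars), grouped by role; dashed lines mark a 2-fold difference either way. The intervals of Casp9 and Bcl2l11 lie above 0 without adjustment and no member passed after it.

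The 6 members with the smallest p between the groups were Bcl2l11, Casp9, Bcl2l1, Casp12, Xiap and Diablo, all at a limma adjusted p of 0.9996. Bcl2l11 encodes Bim, a BH3-only protein that binds the anti-apoptotic family members. It ran from -1.85 to 3.15 (median 0.59) over 7 alcohol-fed arrays, against -2.63 to 1.46 (median -1.85) over 6 pair-fed arrays, a difference of 1.75 ± 0.78 (SE). It lay above the pool on 6 of 7 alcohol-fed and 2 of 6 pair-fed arrays, and the exceptions were alcohol-fed array 6 and pair-fed arrays 6 and 7, the arrays with most placeholders. Leaving out these 3 arrays, an alternative chosen after seeing the data, takes out the exceptions, so that a larger difference was built in. The difference was then 3.21 ± 0.58 (SE), with a limma adjusted p of 0.998. The part of array quality in it was not tested.

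Casp9, the initiator caspase of the apoptosome, averaged 0.48 ± 0.73 in alcohol-fed fetuses and -0.93 ± 1.69 in pair-fed fetuses (SD, n = 7 each), a difference of 1.41 ± 0.64 (SE). It was above the pool on 6 alcohol-fed arrays and on 1 pair-fed array. The lowest pair-fed values were -4.21 on array 5 and -2.29 on array 7, and without pair-fed array 5 the difference was 0.86. Bcl2l1 encodes Bcl-xL, an anti-apoptotic family member, and its difference was 1.34 ± 0.68 (SE), from 0.53 ± 1.24 in alcohol-fed (SD, n = 7) and -0.81 ± 1.45 in pair-fed fetuses (SD, n = 6). Without the 3 arrays with most placeholders it was 0.76.

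Casp12, a caspase of the inflammatory group, averaged 0.46 ± 0.98 in alcohol-fed fetuses (SD, n = 6) and -0.78 ± 1.94 in pair-fed fetuses (SD, n = 7), a difference of 1.24 ± 0.77 (SE). Pair-fed array 3 stood at -4.71, and the difference without it was 0.58. Xiap was the member farthest below 0 in this comparison, at -0.68 ± 0.50 (SE), or -1.05 without pair-fed array 3 and -0.38 without the 3 arrays with most placeholders. Diablo encodes Smac, which relieves caspases of Xiap, and differed by 0.58 ± 0.46 (SE), or by 0.35 without alcohol-fed array 1 and 0.87 without alcohol-fed array 6.

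**Figure D2:**
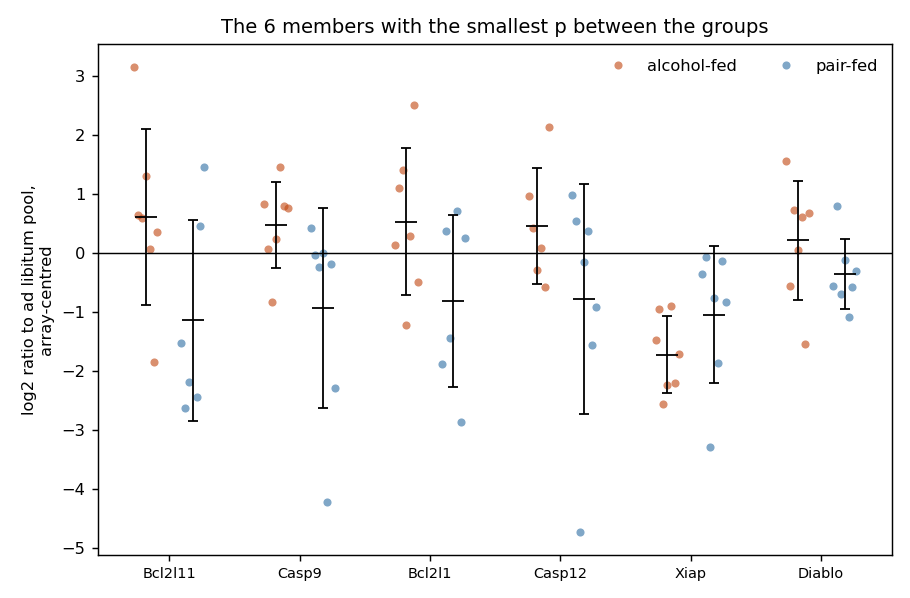
Log2 ratio to the pool on each array (points, alcohol-fed left and pair-fed right) with mean and SD (bars) for the 6 members with the smallest p between the groups. The pair-fed arrays reach -4.71 for Casp12 and -4.21 for Casp9, and the groups overlap for every gene.

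Against the pool, members were called in the alcohol-fed group at a share near that of all probes, and all of these calls were lower. Under other processing, 1 member was called higher with values as deposited, quantile normalization or array weights. The same held without alcohol-fed array 6 and without the 3 arrays with most placeholders. Limma called 7 of 36 probes lower and 0 higher in the alcohol-fed group (19.4%), against backgrounds of 15.5% lower and 8.02% higher over all probes (23.5% in all). In the pair-fed group it called 8 lower and 1 higher (25.0%), against 13.5% and 7.86% (21.3% in all). The shares called were near those of the whole array. Without adjustment, 11 of 36 member probes had a limma p under 0.05 in the alcohol-fed group, a lower share than the 38.5% of all probes. In the pair-fed group 18 of 36 did, a higher share than the 36.1% of all probes. Every array lay on 1 side of the pool for 7 members in each group (19.4%), beside 23.8% of all probes in the alcohol-fed and 18.6% in the pair-fed group. The median over member probes was -0.25 in the alcohol-fed and -0.77 in the pair-fed group, and over all probes 0.01 and -0.03. Without alcohol-fed array 2, 4 or 5 the alcohol-fed member median was -0.15, -0.17 or -0.14. The pair-fed member median was -0.54 without pair-fed array 1 and -0.88 without pair-fed array 2. It was -0.49 over the 26 member probes with a value on all arrays. Both comparisons share the pool, so that agreement between them is not independent, and since dyes were not reversed a dye effect cannot be told apart from a difference to the pool.

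The split of calls depends on scaling and on which probes are tested. With values as deposited or quantile normalized the median of all probes moved to 0.14 in both cases in the alcohol-fed group and to 0.09 and 0.08 in the pair-fed group. Of all calls, 34.1% were higher in the alcohol-fed group, against 44.2% and 48.7% under these scalings, and 36.9% in the pair-fed group, against 47.5% and 48.4%. With the centring kept but only probes with a value on all arrays tested, the shares were 50.3% in the alcohol-fed and 51.2% in the pair-fed group. The member median under these scalings was -0.12 as deposited and -0.10 with quantile normalization in the alcohol-fed group, and -0.66 under both in the pair-fed group. Among members the calls became 1 higher and 6 lower under both scalings in the alcohol-fed group, and 3 higher and 5 lower (as deposited) or 4 and 6 (quantile) in the pair-fed group.

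**Figure D3:**
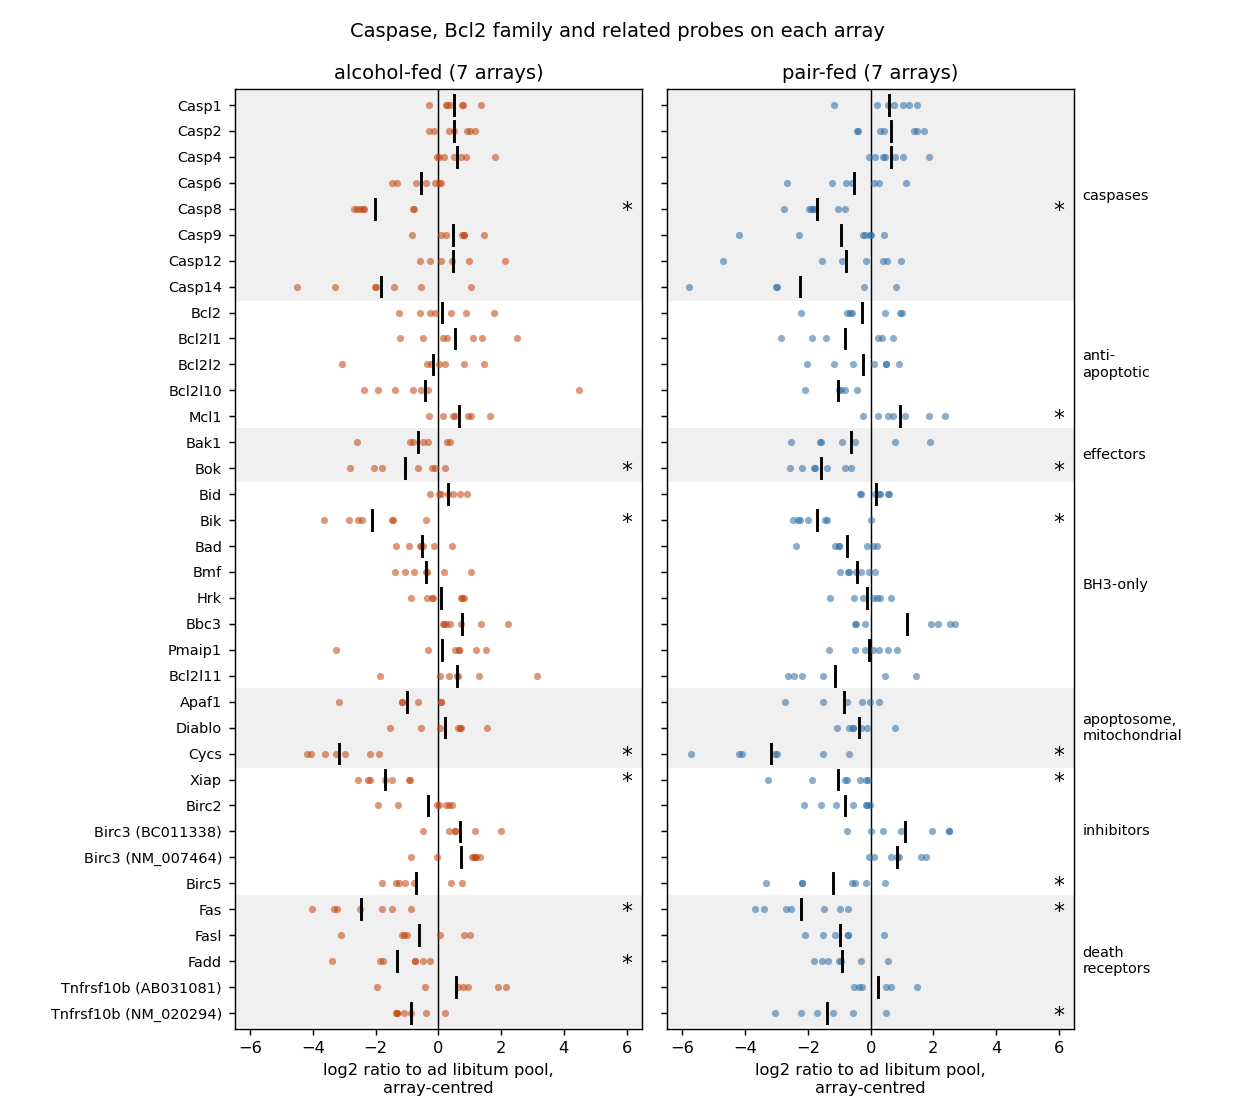
Log2 ratio to the pool on each array (points) and group mean (black ticks) for all 36 member probes by role, alcohol-fed left and pair-fed right; asterisks mark a limma adjusted p under 0.05 against the pool. Most probes straddle 0, and the alcohol-fed calls are all below it.

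Of the caspases, 1 of 8 was called (12.5%), and it was the same gene in both groups. Over all probes 23.5% were called in the alcohol-fed and 21.3% in the pair-fed group. Casp8, the initiator that the death receptors recruit, ran from -2.69 to -0.77 (median -2.40) in alcohol-fed fetuses, against -2.77 to -0.81 (median -1.83) in pair-fed fetuses. It lay below the pool on all 14 arrays, 4.06-fold in the alcohol-fed group (-2.02 ± 0.31 SE, limma adjusted p = 0.000175) and 3.31-fold in the pair-fed group (-1.73 ± 0.31 SE, limma adjusted p = 0.000857). The groups differed by -0.30, with a 95% interval of -1.22 to 0.63.

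Casp14, the caspase of cornifying epidermis, averaged -1.82 ± 1.80 in alcohol-fed fetuses (SD, n = 7) and -2.24 ± 2.61 in pair-fed fetuses (SD, n = 5) and did not pass in either group (limma adjusted p 0.0634 and 0.0584). It had the widest spread between pair-fed arrays of all members, from -5.78 to 0.82. In the alcohol-fed group 4 of 13 epidermis marker probes were called lower and 0 higher, beside 15.5% and 8.02% of all probes. In the pair-fed group 3 were called lower and 0 higher, beside 13.5% and 7.86%. The called markers of that list were Krt15, Krt4, Lor and Tgm3 in alcohol-fed and Krt15, Tgm1 and Tgm3 in pair-fed fetuses. The mean ratio of that list ran from -1.09 to -0.29 over the alcohol-fed arrays and from -0.84 to -0.04 over the pair-fed arrays. Its part in the Casp14 values was not tested. The medians of the list straddled 0 in the alcohol-fed group, from -0.27 to 0.34 over arrays, and ran from -0.79 to -0.09 over the pair-fed arrays. The lowest markers were Lor at -2.94 and Krt15 at -1.95 in alcohol-fed fetuses, against -1.74 and -1.70 in pair-fed fetuses. The highest in the alcohol-fed group were Ivl at 0.40 and Krt1 at 0.39, against 0.20 and -0.31 in pair-fed fetuses. Neither Ivl nor Krt1 was called in either group.

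The inflammatory caspases Casp1 and Casp4 and the initiator Casp2 had means above the pool in both groups and did not pass. Casp1, which matures interleukin 1 beta, stood at 0.49 ± 0.52 in alcohol-fed and 0.58 ± 0.88 in pair-fed fetuses (SD, n = 7 each). Casp2 and Casp4 lay at 0.49 and 0.58 in the alcohol-fed group and at 0.64 and 0.66 in the pair-fed group. Casp6, an executioner, stood at -0.56 and -0.53.

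None of the 5 anti-apoptotic genes was called in the alcohol-fed group, beside 23.5% of all probes. In the pair-fed group 1 of 5 was (20%), beside 21.3% of all probes. Mcl1, a short-lived anti-apoptotic protein, rose in the pair-fed group, where it ran from -0.25 to 2.36 (median 0.71), while it ran from -0.30 to 1.65 (median 0.52) in alcohol-fed fetuses. Its mean was 0.64 ± 0.32 (SE, limma adjusted p = 0.149) in the alcohol-fed and 0.94 ± 0.32 (SE, limma adjusted p = 0.0440) in the pair-fed group. It was above the pool on 6 of 7 arrays of each group. The call ended without any 1 of pair-fed arrays 1, 2, 3, 6 or 7 or alcohol-fed arrays 3, 4, 5 or 7 (limma adjusted p 0.0508 to 0.127), and also with the replicate block (0.0635), with array weights (0.0785) and without the 3 arrays with most placeholders (0.182).

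Bcl2 itself averaged 0.11 ± 0.99 in alcohol-fed and -0.27 ± 1.14 in pair-fed fetuses (SD, n = 7 each), and Bcl2l2, which encodes Bcl-w, -0.17 ± 1.43 and -0.25 ± 1.05. The alcohol-fed mean of Bcl2l2 turned to 0.31 without array 6, which stood at -3.08. Bcl2l10, whose product is mainly known from the ovary, averaged -0.42 ± 2.28 in alcohol-fed (SD, n = 7) and -1.06 ± 0.62 in pair-fed fetuses (SD, n = 5). The alcohol-fed spread came from array 6 at 4.47, since the other arrays lay at -0.34 or below and averaged -1.23.

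Of the pore-forming effectors, Bok fell in both groups and Bak1 did not pass. Bok ran from -2.84 to 0.20 (median -0.64) in alcohol-fed fetuses, against -2.56 to -0.64 (median -1.76) in pair-fed fetuses, and was below the pool on 13 of the arrays. It was 2.10-fold lower in the alcohol-fed group (-1.07 ± 0.36 SE, limma adjusted p = 0.0394) and 3.02-fold lower in the pair-fed group (-1.59 ± 0.36 SE, limma adjusted p = 0.00509). The alcohol-fed call ended without alcohol-fed array 1, 3, 4 or 6 (limma adjusted p 0.0534, 0.102, 0.112 and 0.125), and without array 6 the value was -0.78. Bak1 averaged -0.64 ± 1.00 in alcohol-fed and -0.64 ± 1.52 in pair-fed fetuses (SD, n = 7 each), and -0.31 without alcohol-fed array 1.

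Among the 8 BH3-only genes only Bik was called (12.5% in each group, beside 23.5% of all probes in the alcohol-fed and 21.3% in the pair-fed group). Bik, a sensor linked to the endoplasmic reticulum, ran from -3.64 to -0.39 (median -2.43) in alcohol-fed fetuses, against -2.47 to 0.01 (median -2.01) in pair-fed fetuses. It was 4.32-fold lower in the alcohol-fed group (-2.11 ± 0.36 SE, limma adjusted p = 0.000547) and 3.24-fold lower in the pair-fed group (-1.69 ± 0.36 SE, limma adjusted p = 0.00355). A single array, pair-fed 2, lay at the level of the pool.

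The p53 targets of this group did not pass. Bbc3, which encodes Puma, was above the pool on all 7 alcohol-fed arrays (0.14 to 2.21) and on 4 of 7 pair-fed arrays (-0.50 to 2.69), with means of 0.74 ± 0.42 and 1.16 ± 0.42 (SE) and limma adjusted p of 0.196 and 0.0549. Pmaip1, which encodes Noxa, averaged 0.13 ± 1.61 in alcohol-fed and -0.04 ± 0.73 in pair-fed fetuses (SD, n = 7 each). Its alcohol-fed mean was 0.69 without array 6, which stood at -3.27. Bid, the substrate through which Casp8 reaches the mitochondrial route, had the narrowest spread between arrays, at 0.32 ± 0.41 and 0.17 ± 0.37. The remaining Bad, Bmf and Hrk lay between -0.52 and 0.09 in alcohol-fed and between -0.77 and -0.12 in pair-fed fetuses.

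The member farthest below the pool was Cycs, cytochrome c of the respiratory chain and trigger of the apoptosome. It ran from -4.18 to -1.88 (median -3.27) in alcohol-fed fetuses, against -5.74 to -0.70 (median -3.06) in pair-fed fetuses. It lay below the pool on all 14 arrays, 9.01-fold in the alcohol-fed group (-3.17 ± 0.47 SE, limma adjusted p = 0.000112) and 9.09-fold in the pair-fed group (-3.18 ± 0.47 SE, limma adjusted p = 0.000117). The groups differed by 0.01, with a 95% interval of -1.38 to 1.40. Its partner Apaf1 averaged -1.01 ± 1.21 in alcohol-fed and -0.84 ± 1.12 in pair-fed fetuses (SD, n = 6 each) and did not pass (limma adjusted p 0.108 and 0.185).

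In the inhibitor of apoptosis family, Xiap fell in both groups and Birc5 in the pair-fed group. Xiap, which binds active caspases directly, ran from -2.56 to -0.90 (median -1.72) in alcohol-fed fetuses, against -3.29 to -0.07 (median -0.76) in pair-fed fetuses, below the pool on all 14 arrays. It was 3.29-fold lower in the alcohol-fed group (-1.72 ± 0.36 SE, limma adjusted p = 0.00245) and 2.06-fold lower in the pair-fed group (-1.04 ± 0.36 SE, limma adjusted p = 0.0450). The pair-fed call ended without any 1 of pair-fed arrays 1, 3, 4, 5 or 7 or alcohol-fed arrays 1, 4 or 7 (limma adjusted p 0.0502 to 0.138), and without pair-fed array 3 the value was -0.67.

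Birc5 encodes survivin, an inhibitor that also serves in chromosome segregation. It averaged -0.73 ± 0.95 in alcohol-fed and -1.21 ± 1.37 in pair-fed fetuses (SD, n = 7 each), with limma adjusted p of 0.206 and 0.0466. The pair-fed call ended without any 1 of pair-fed arrays 1, 2, 4, 5 or 6 or alcohol-fed arrays 1, 3, 4 or 5 (limma adjusted p 0.0516 to 0.157). Of 14 probes of dividing-cell markers, 2 were called higher and 1 lower in the alcohol-fed group, beside 8.02% and 15.5% of all probes. In the pair-fed group 0 were called higher and 2 lower, beside 7.86% and 13.5%. Between the groups 4 of the 14 had an unadjusted limma p under 0.05, beside 4.22% of all probes, and 0 passed after adjustment. These 4 did not share a direction, with differences of 1.66 for Top2a, 1.41 for Mcm2, 1.39 for Mcm6 and -1.34 for Pcna. The mean ratio of the dividing-cell markers ran from -0.91 to 0.25 over alcohol-fed and from -0.58 to -0.09 over pair-fed arrays. Their part in the Birc5 values was not tested.

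Birc2 and Birc3 encode the ubiquitin ligases cIAP1 and cIAP2 of the tumour necrosis factor receptor. Both Birc3 probes lay above 0, at 0.68 and 0.71 in the alcohol-fed group and 1.08 and 0.84 in the pair-fed group, with limma adjusted p of 0.251 and 0.106 and of 0.0600 and 0.0627. Birc2 stood at -0.32 ± 0.91 in alcohol-fed and -0.80 ± 0.82 in pair-fed fetuses (SD, n = 7 each) and did not pass.

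**Figure D4:**
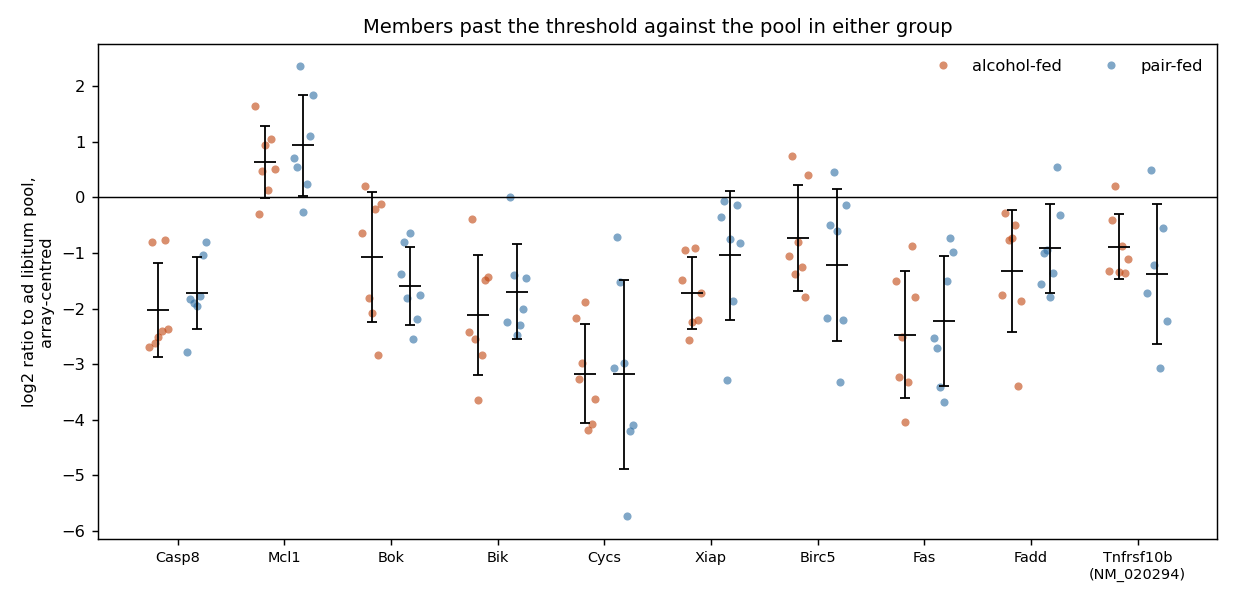
Log2 ratio to the pool on each array (points, alcohol-fed left and pair-fed right) with mean and SD (bars) for the 10 member probes past the threshold against the pool in either group. Casp8, Cycs, Xiap and Fas lie below 0 on all 14 arrays, and Mcl1 is the only one of the 10 with means above 0.

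Of the death receptor arm, Fas fell in both groups, as did Casp8 downstream of it. Fadd fell in the alcohol-fed group and a Tnfrsf10b probe in the pair-fed group. Fas, the receptor, ran from -4.05 to -0.88 (median -2.51) in alcohol-fed fetuses, against -3.68 to -0.73 (median -2.53) in pair-fed fetuses. It lay below the pool on all 14 arrays, 5.53-fold in the alcohol-fed group (-2.47 ± 0.41 SE, limma adjusted p = 0.000392) and 4.66-fold in the pair-fed group (-2.22 ± 0.41 SE, limma adjusted p = 0.00108). The groups differed by -0.25, with a 95% interval of -1.47 to 0.97. Fadd, the adaptor, ran from -3.39 to -0.28 (median -0.76) in alcohol-fed fetuses, against -1.80 to 0.54 (median -1.0) in pair-fed fetuses.

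Fadd was 2.51-fold lower than the pool in the alcohol-fed group (-1.33 ± 0.36 SE, limma adjusted p = 0.0143) and stood at -0.92 ± 0.36 (SE, limma adjusted p = 0.0764) in the pair-fed group. The difference between the groups was -0.41 ± 0.51 (SE) and did not pass, so the call in 1 group does not show a difference between them. Fadd in the pair-fed group gained a call without pair-fed array 6 (-1.16, limma adjusted p = 0.0339) or without alcohol-fed array 6 (limma adjusted p = 0.0380).

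Fasl, the ligand of Fas, averaged -0.64 ± 1.42 in alcohol-fed (SD, n = 7) and -0.97 ± 0.86 in pair-fed fetuses (SD, n = 6) and did not pass. Tnfrsf10b, the mouse receptor for the ligand Trail, had probes that disagreed in sign. Probe AB031081 stood at 0.57 in alcohol-fed and 0.24 in pair-fed fetuses, and probe NM_020294 at -0.89 and -1.38, the last with a limma adjusted p of 0.0188. That call ended without pair-fed array 5 or 7 (limma adjusted p 0.0772 and 0.0576), and which probe measures the gene was not tested.

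Fas is expressed by many cell types, leukocytes among them. Of 14 leukocyte marker probes 4 were called lower and 0 higher in each group (28.6%). Over all probes 15.5% were called lower and 8.02% higher in the alcohol-fed group, and 13.5% and 7.86% in the pair-fed group. Il7r, Itgam and Cd68 were called in both groups, at -3.75, -1.11 and -1.78 in alcohol-fed and -3.25, -1.39 and -1.63 in pair-fed fetuses. Cd4 was called in the alcohol-fed group, at -1.96 against -0.02 in pair-fed fetuses, and its difference of -1.94 ± 0.62 (SE) had an unadjusted limma p of 0.00600 and an adjusted p of 0.9996. Ptprc was called in the pair-fed group, at -0.91 in alcohol-fed and -1.77 in pair-fed fetuses. The mean ratio of the list ran from -1.0 to -0.39 over alcohol-fed arrays and from -1.20 to -0.37 over pair-fed arrays. Its median ran from -0.96 to -0.12 over alcohol-fed arrays and straddled 0 over pair-fed arrays, from -0.79 to 0.16. The 9 other probes, of Cd3e, Cd3g, Cd8a, Cd79a, Cd79b, Lyz2 and Cd14, were not called in either group. The part of leukocytes in the Fas and Casp8 values was not tested.

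Other genes of the same pathways came from a list of 80, of which 66 genes (69 probes) were tested. In the alcohol-fed group 4 probes rose and 11 fell against the pool (21.7%, beside 23.5% of all probes). In the pair-fed group 5 rose and 14 fell (27.5%, beside 21.3%), and 0 passed between the groups. Highest in both groups was Htra2, a mitochondrial protease that antagonises Xiap, at 5.31 ± 0.33 (SE, limma adjusted p = 1.74e-09) in alcohol-fed and 5.32 ± 0.33 (SE, limma adjusted p = 1.54e-09) in pair-fed fetuses. Its difference between the groups was -0.01 ± 0.46 (SE). Htra2 was measured by a single probe. Since the pool was shared and dyes were not reversed, a dye effect cannot be told apart from a difference to the pool here either.

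The granzymes, serine proteases of cytotoxic lymphocytes, were among the lowest. Gzmb stood at -2.47 ± 0.30 (SE) in alcohol-fed and -1.85 ± 0.30 in pair-fed fetuses, and Gzma at -2.82 ± 0.38 and -2.59 ± 0.38, with limma adjusted p of at most 0.000298. Bcl2a1a, an anti-apoptotic relative of Bcl2 with near-identical gene copies that this probe may not separate, fell by 2.79 in alcohol-fed and by 1.77 in pair-fed fetuses. Tnfrsf1b, a receptor for tumour necrosis factor, stood at -1.76 ± 0.31 (SE) in alcohol-fed and -2.58 ± 0.36 in pair-fed fetuses.

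The other rises in the alcohol-fed group were Cideb, of the CIDE family (1.42 ± 0.35 SE), and the mitochondrial porins Vdac1 (0.99 ± 0.28 SE) and Vdac2 (0.87 ± 0.26 SE), the last named after its value was seen. In the pair-fed group Cideb stood at 1.20, Vdac1 at 1.01 and Vdac2 at 0.53 (limma adjusted p = 0.152). In the pair-fed group the cytokine Tnf rose (1.12 ± 0.27 SE), and the probes of Cflar, the Casp8-like inhibitor of the death receptor complex, were called in opposite directions (1.04 and -1.24). In the alcohol-fed group Tnf stood at 0.75 (limma adjusted p = 0.0517) and the Cflar probes at 0.71 and -0.25, and none of these was called.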

How the data were processed

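Total RNA was labelled by a Genisphere Cy3/Cy5 kit, per the labels' protocols. The authors deposited log2 ratios, 1 for each of 21582 probes on every array; the log2 scale was inferred from the values. How spots were scanned, background-corrected and normalized is not stated in the labels, and without spot signals it is unknown which probes exceeded background. Exact zeros and the ceiling of 16.61 were treated as placeholders and removed. Each array was centred on its median, and probes with at least 4 values in each group were tested (20876 probes, without the other 706). Fits used limma 3.58.1 and R 4.3.3 (lmFit, eBayes, all 14 arrays in 1 fit, two-sided), adjusted by Benjamini-Hochberg over all probes tested at 0.05, for alcohol-fed minus pair-fed and for each group's mean against 0. The pool counts as 1 control sample, and its own spread is left out. SE is limma's, from 1 variance per probe over both groups. SD is a group's own spread over its arrays, and n counts arrays with a value, not fetuses. The fit was checked on simulated data.

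Names come from the platform annotation; 16635 probes have 1 symbol, 113 several and 4834 none. Members and lists were chosen with earlier results of these data known. Values by array are given for members past the threshold against the pool and for the 6 smallest p between groups, and the other pathway genes named include the 3 smallest p in each direction per group. Distinct arrays shared at most 0.287% identical values. Same-numbered arrays of the 2 groups deviated together at r = -0.10 to 0.23, over 0.1 in 2 of 7 pairs, so the numbers were not taken as pairs. The number of arrays limits the precision.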

Additional observations from a re-analysis of the deposited data

Results flagged for a closer look

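In 72 sets of arrays (36 probes in 2 groups), 4 held an array that stood apart by Dixon's gap over range, where chance flags about 1 in 20. In the alcohol-fed group array 6 stood apart for Bcl2l10 at 4.47, with the nearest array at -0.34, for Pmaip1 at -3.27, nearest -0.35, and for Bcl2l2 at -3.08, nearest -0.37. Array 6 had the third most placeholders (7.91% of probes). Alcohol-fed array 1 stood apart for Bak1 at -2.61, with the nearest array at -0.90.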

How the results depend on the processing

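The number of members called stayed at 0 between the groups under all 23 alternatives run, and all probes gave 0 as well, with 561 to 1123 of them at an unadjusted p under 0.05. Against the pool, member calls numbered 6 to 8 in the alcohol-fed and 6 to 13 in the pair-fed group, and leaving out 1 array gave 6 to 8 and 6 to 12. All calls numbered 3330 to 6255 in the alcohol-fed and 3256 to 4891 in the pair-fed group. The alternatives were values as deposited, quantile normalization, placeholders kept, other minimums of values (at least 2 per group, or all arrays), robust eBayes, array weights, the replicate block, 14 single arrays left out and, added after seeing the data, the 3 arrays with most placeholders left out. With the replicate block members numbered 0 between the groups, 8 in alcohol-fed and 9 in pair-fed, and all calls 0, 4231 and 3978. Of the calls of the 10 probes it ended that of Mcl1 and no other. Of 458 values of the 10 called probes against the pool, 406 kept direction and side of the threshold, 48 lost a call, 4 gained one and 0 changed sign. Casp8, Bik, Cycs and Fas in both groups, Bok in the pair-fed group, and Xiap and Fadd in the alcohol-fed group kept their call throughout. The Bok call in the alcohol-fed group and those of Xiap, Birc5 and Tnfrsf10b in the pair-fed group also ended with values as deposited (limma adjusted p 0.109, 0.107, 0.0842 and 0.0703). With quantile normalization those of Bok, Xiap and Birc5 ended (0.0672, 0.0612 and 0.0717), and that of Bok with array weights (0.0572). That of Birc5 ended with placeholders kept (0.0523) or at least 2 values per group (0.0503). Without the 3 arrays those of Bok, Birc5 and Tnfrsf10b ended (0.121, 0.0861 and 0.0564). Fadd in the pair-fed group gained a call without the 3 arrays (0.00783) and with array weights (0.0272). The cause was not tested. The 135 values for the 6 differences between groups kept their sign and passed in 0 cases. The median half-width of a probe's 95% interval for that difference was 1.09 on the log2 scale.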
